A study of Canis lupus familiaris with 10 samples.

Results

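The 5 miRNAs described here, cfa-miR-9, cfa-miR-124, cfa-miR-128, cfa-miR-129 and cfa-miR-137 (the prefix marks the dog and is left out from here on), are known for high expression in the brain and were followed in lymph nodes of dogs with and without diffuse large B-cell lymphoma (DLBCL), a tumor of mature B cells. They were taken by name from the 320 canine miRNAs listed in the deposited table, and all 5 were listed. Small RNA of fresh-frozen lymph nodes was sequenced as 10 libraries. DLBCL1 to DLBCL6 came from 6 dogs with the tumor, and Healthy2 to Healthy5 from 4 dogs without it. The dogs with DLBCL were hospital patients of both sexes and several breeds, and a peripheral node was biopsied under anesthesia. The healthy dogs were young, female, purpose-bred hound crosses whose nodes were collected at euthanasia, so that breed, origin and sampling cannot be told apart from the diagnosis. The females in the study's patient list bear the numbers of DLBCL3 and DLBCL5. That list does not name the libraries, so that this match is by number only. The part of sex was not tested. The ages of the patients are not given in the sources used here. No library was made from brain.

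A miRNA guides the silencing complex to messenger RNAs that pair with bases near its 5′ end, and lowers their stability or translation. miR-124 is the best known neuronal miRNA and represses transcripts of non-neuronal cells, while miR-137 acts in the maturation of neurons and their synapses. miR-9 is expressed in neural progenitors and controls the timing of neurogenesis, and it is also known in germinal center B cells, where it targets PRDM1, the regulator of plasma cell differentiation. miR-128 dampens the excitability of neurons and is also known from blood cell precursors and acute lymphoblastic leukemia. miR-129 is a brain miRNA known to target SOX4, a transcription factor of progenitor and tumor cells. In the RefSeq gene table of the assembly UU_Cfam_GSD_1.0, miR-9 has 3 genes, miR-124, miR-128 and miR-129 have 2 each and miR-137 has 1. Both miR-128 genes lie within protein-coding genes, MIR128-1 in R3HDM1 and MIR128-2 in ARPP21. The counts are given per mature miRNA and not per gene, so that reads cannot be assigned to one of several genes. The names carry no arm.

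The libraries held between 10686441 and 34709421 miRNA reads, and the medians were 19024822 in DLBCL and 30767145 in healthy nodes. Levels are given as CPM, the count per 1000000 reads of the library after edgeR's TMM scaling, and where named as the authors' TPM, the count per 1000000 miRNA reads without that scaling. The TMM factors ranged from 0.698 to 2.03 in DLBCL and from 0.507 to 1.11 in healthy nodes, so that both scales are given where they differ. To describe the labelled tissue, 6 miRNAs of lymphoid cells were followed, which were present in 10 of 10 libraries. They summed to between 13179 and 28433 CPM in DLBCL and between 22929 and 41179 CPM in healthy nodes. Of these, 2 of 6 fell in DLBCL by edgeR and 0 rose, where 2.02% of all miRNAs tested were called lower and 3.64% higher. The 3 miRNAs of red blood cells summed to between 5170.6 and 35566 CPM in DLBCL and between 808 and 1070.4 CPM in healthy nodes, and 2 of 3 rose. The 3 of exocrine pancreas summed to between 17.5 and 662 CPM in DLBCL and between 914 and 1950 CPM in healthy nodes. The 4 of stroma and vessels summed to between 18831 and 70597 CPM in DLBCL and between 26825 and 55237 CPM in healthy nodes. In either list 0 were called. At an unadjusted p under 0.05 (edgeR) 3 of 3 of the pancreas list passed, all lower in DLBCL, and 0 of 4 of the stroma list, against 26.7% of all miRNAs tested. The groups did not overlap for the 3, as for 13.0% of all. The miRNAs of red blood cells, pancreas and stroma were also counted in 10 of 10 libraries, so that presence alone does not identify the tissue. The part of these cells in the results below was not tested. In bulk tissue, fewer cells of a type cannot be told apart from less RNA per cell. The study's read statistics place DLBCL1, DLBCL2, DLBCL3 and DLBCL5 above the other 6 libraries in the percentage of bases at a quality score over 30 (Q30). The higher Q30 group therefore holds DLBCL libraries only, and comparisons within the lower group rest on DLBCL4 and DLBCL6 against the 4 healthy libraries.

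miR-128 was the most abundant of the 5 miRNAs in each library, followed by miR-9 and then miR-129, an order that held in 10 of 10 libraries. Mature miRNAs are of nearly equal length, so that their counts can be compared without a length term, although adapters ligate to some sequences better than to others. The 5 together summed to between 1092.0 and 7517 CPM in DLBCL and between 792 and 928 CPM in healthy nodes, and miR-128 made up 61.5% to 99.0% of that sum over all libraries. miR-124 and miR-137, the neuronal pair, stayed at 11 reads or fewer per library. A list of 5 miRNAs of neurons holds this pair with miR-153, miR-383 and miR-488. In it, miR-124, miR-137 and miR-488 had maxima of 11, 5 and 5 reads. The remaining members were more abundant. miR-153 had between 19 and 311 reads in 10 of 10 libraries, and miR-383 had up to 117 reads and was counted in 9 of 10. The list summed to between 0.894 and 12.2 CPM in DLBCL and between 6.93 and 10.5 CPM in healthy nodes.

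**Figure D1:**
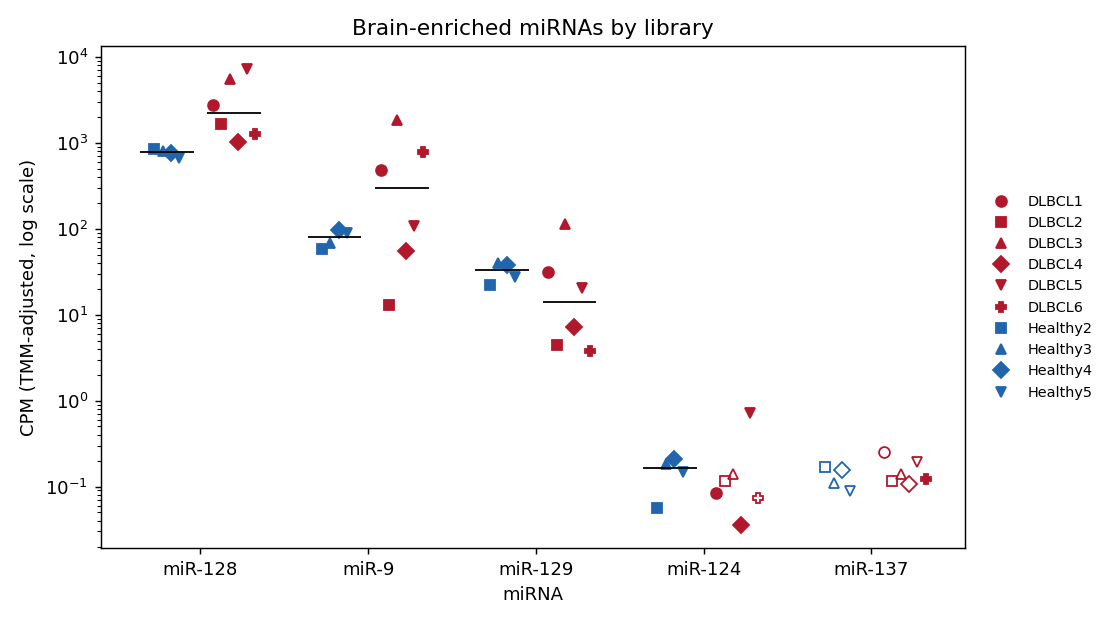
CPM (log axis) of the 5 brain-enriched miRNAs in each of the 10 libraries, with healthy nodes in blue and DLBCL nodes in red. Horizontal bars are group medians, left out where the median lies below 0.05 CPM, and open symbols mark libraries without a read, drawn at the level of 3 reads. The 6 DLBCL libraries lie above the 4 healthy libraries for miR-128, on both sides of them for miR-9 and miR-129, and near the limit of 3 reads for miR-124 (except DLBCL5, at 0.717 CPM) and miR-137.

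In the comparison of DLBCL with healthy nodes, 3 of the 5 miRNAs passed edgeR's filter on low counts, and 0 of these 3 were differentially expressed (DEMs), that is, past an adjusted p of 0.05 and a 2-fold change. Over all 247 miRNAs tested 14 were called, or 5.67%, with 9 higher in DLBCL (3.64%) and 5 lower (2.02%). At an unadjusted p under 0.05, miR-9 and miR-128 passed, against 26.7% of all miRNAs tested. DESeq2, the tool of the study's methods, called both of them and not miR-129, against 15.0% of the miRNAs for which it gave an adjusted p. Over all miRNAs tested, the median difference was 0.13 on the log2 scale. When libraries were scaled to total miRNA reads it was 0.82, and 22 miRNAs were called higher and 1 lower.

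miR-128 measured 847, 810, 771 and 675 CPM in Healthy2, Healthy3, Healthy4 and Healthy5. In DLBCL its lowest value was 1029.7 CPM in DLBCL4, its median was 2227 CPM and its highest was 7289.7 CPM in DLBCL5. The healthy libraries were close together, and every DLBCL library lay above each of them, as groups without overlap did for 13.0% of the miRNAs tested. miR-128 averaged 3263 ± 2578 CPM over the DLBCL dogs (SD, n = 6) and 776 ± 74.1 CPM over the healthy dogs (SD, n = 4). Its fitted difference was 2.07 on the log2 scale, with a standard error of 0.59, a 95% interval of 0.80 to 3.35, an unadjusted p of 0.0039 and, over the miRNAs tested, an adjusted p of 0.0575 (edgeR). The exact permutation test of the log2 CPM (two-sided, 210 arrangements of the group labels) gave p = 0.019, or 0.131 after adjustment over the miRNAs tested. On the authors' TPM scale the gap between the groups was wider, with 1799 to 5090.1 TPM in DLBCL and 429 to 749 TPM in healthy nodes. Scaled to total miRNA reads, the log2 fold change was 2.45, and miR-128 was a DEM (adjusted p = 0.00602 from edgeR), as were 9.31% of the miRNAs tested. The median difference of all miRNAs was 0.82 with that scaling, and the share without overlap in TPM was not computed. It took place 18 to 48 by read count in the DLBCL libraries and place 47 to 49 in the healthy ones.

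Within DLBCL, the level of miR-128 in CPM was higher in the higher Q30 group, and in TPM the Q30 groups overlapped. The 4 libraries of the higher group measured 2793 CPM (DLBCL1), 1661 CPM (DLBCL2), 5549.7 CPM (DLBCL3) and 7289.7 CPM (DLBCL5), and the 2 of the lower group 1029.7 CPM (DLBCL4) and 1257 CPM (DLBCL6). The highest values were thus in DLBCL3 and DLBCL5, by number the females, and the lower Q30 group held the lowest pair. The healthy dogs, all female, measured 675 to 847 CPM, below every DLBCL library. In TPM, the higher group measured 3123 (DLBCL1), 2337 (DLBCL2), 4573 (DLBCL3) and 5090.1 (DLBCL5) and the lower group 1799 (DLBCL4) and 2555 (DLBCL6). DLBCL3 and DLBCL5 were again the highest, but DLBCL2 lay below DLBCL6. Within the lower Q30 group the log2 fold change was 0.55 (adjusted p = 0.308 from edgeR), where 17.8% of the miRNAs tested were called. With total miRNA reads in place of TMM it was 1.87 in the same 6 libraries (adjusted p = 0.0115 from edgeR), where 33.6% were called and the median of all miRNAs was 1.24. This combination was chosen after seeing the data. The part of read quality in the difference was not tested beyond these values.

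miR-9 measured 58.8, 68.6, 96.8 and 89.8 CPM in Healthy2, Healthy3, Healthy4 and Healthy5. In DLBCL it ranged from 13.0 CPM in DLBCL2 to 1854 CPM in DLBCL3, with a median of 298 CPM. The values of DLBCL1 (488 CPM), DLBCL3, DLBCL5 (109 CPM) and DLBCL6 (782 CPM) lay above every healthy library, and those of DLBCL2 and DLBCL4 (55.0 CPM) below every healthy library. The nodes with lymphoma thus lay on both sides of the healthy range, and 0 of 6 lay within it. In TPM, DLBCL1 (545), DLBCL3 (1527) and DLBCL6 (1589.6) were above the healthy range of 29.8 to 99.7, DLBCL2 (18.3) was below it, and DLBCL4 (96.0) and DLBCL5 (75.8) were within it. The highest and lowest DLBCL libraries differed 143-fold in CPM, and the healthy ones 1.65-fold.

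miR-9 averaged 550.0 ± 705 CPM over the DLBCL dogs (SD, n = 6) and 78.5 ± 17.8 CPM over the healthy dogs (SD, n = 4). edgeR put the difference at 2.81 on the log2 scale, with a standard error of 1.10, a 95% interval of 0.42 to 5.20 and an adjusted p of 0.121, short of the threshold. Without DLBCL3 it was 1.93. The group means of log2 CPM, which weight each library equally on the log scale, differed by 1.34, and the exact permutation test gave p = 0.352 (two-sided), or 0.565 after adjustment over the miRNAs tested. DESeq2 gave a log2 fold change of 3.01 with an adjusted p of 0.0171. Within the lower Q30 group, where DLBCL4 and DLBCL6 measured 55.0 and 782 CPM, the log2 fold change was 2.41 and the adjusted p from edgeR was 0.0484, where 17.8% of the miRNAs tested were called.

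The spread of miR-9 among the DLBCL nodes was large beside that of other miRNAs. Its SD of log2 CPM was 2.67 in DLBCL, which ranked 10 of the 247 miRNAs tested, where the median was 1.07. In healthy nodes the SD was 0.34, which ranked 188 of 247, with a median of 0.54. miR-129 had SDs of 1.89 and 0.40, which ranked 30 and 165, and miR-128 had SDs of 1.16 and 0.14, which ranked 108 and 238. In healthy nodes each of the 3 varied less than the median miRNA, and in DLBCL each varied more.

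miR-129 measured 21.9, 39.5, 38.2 and 27.5 CPM in Healthy2, Healthy3, Healthy4 and Healthy5. In DLBCL it ranged from 3.77 CPM in DLBCL6 to 113 CPM in DLBCL3, with a median of 13.9 CPM. Only DLBCL3 lay above the healthy libraries and DLBCL1 (31.8 CPM) lay among them, while DLBCL2 (4.42 CPM), DLBCL4 (7.27 CPM), DLBCL5 (20.5 CPM) and DLBCL6 lay below each of them. On the TPM scale 2 of 6 lay above the healthy range of 11.1 to 35.0, 2 within it and 2 below it.

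miR-129 averaged 30.2 ± 42.2 CPM over the DLBCL dogs (SD, n = 6) and 31.8 ± 8.49 CPM over the healthy dogs (SD, n = 4). By edgeR the difference was -0.07 on the log2 scale, with a standard error of 0.86, a 95% interval of -1.95 to 1.80 and an adjusted p of 0.968, and its sign changed with the scaling, being 0.17 with total miRNA reads. The interval holds a 2-fold change in either direction, so that these libraries do not show equal levels. The mean difference of log2 CPM was -1.09 (two-sided exact permutation test, p = 0.290, or 0.520 after adjustment over the miRNAs tested). The single library DLBCL3 decided the size of the fitted value, which was -1.17 without it (adjusted p = 0.256 from edgeR). Within the lower Q30 group, where DLBCL4 and DLBCL6 measured 7.27 and 3.77 CPM, the log2 fold change was -2.54 and miR-129 was a DEM (adjusted p = 0.021 from edgeR), where 17.8% of the miRNAs tested were called. With total miRNA reads it was -1.30 there (adjusted p = 0.206 from edgeR), where 33.6% were called.

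The 3 abundant members were also compared with each other by the ratio of their read counts within each library, which needs no scaling between libraries. There were 3 such ratios, and p-values were adjusted over them. miR-128 had 38.7, 20.5, 20.2 and 24.5 reads for each read of miR-129 in Healthy2, Healthy3, Healthy4 and Healthy5, and in DLBCL between 49.0 in DLBCL3 and 376 in DLBCL2. The groups did not overlap. miR-128 by itself did not overlap either, as 13.0% of the miRNAs tested did not, and how often other ratios separate the groups was not tested. The log2 ratio averaged 7.44 ± 1.23 over the DLBCL dogs (SD, n = 6) and 4.65 ± 0.44 over the healthy dogs (SD, n = 4). The difference was 2.79 (two-sided exact permutation test, p = 0.00952, adjusted p = 0.0286). That adjustment covers these 3 ratios only, which were chosen with earlier results of these data known. Relative to miR-129, miR-128 was higher in these DLBCL libraries, whichever scaling is used. Without any one healthy library the adjusted p was 0.0714, with a difference between 2.69 and 3.0.

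The ratio of miR-9 to miR-129 was 2.68, 1.74, 2.54 and 3.26 in Healthy2, Healthy3, Healthy4 and Healthy5, and in DLBCL it ranged from 2.94 in DLBCL2 to 208 in DLBCL6. DLBCL2 was the single DLBCL library within the healthy range, and the other 5 lay above it. Their log2 ratios, 3.76 ± 2.15 over the DLBCL dogs (SD, n = 6) and 1.32 ± 0.38 over the healthy dogs (SD, n = 4), differed by 2.44 (two-sided exact permutation test, p = 0.0429, adjusted p = 0.0643). Left out one at a time, DLBCL2, DLBCL5 and DLBCL6 each brought the adjusted p under 0.05 (exact permutation test, 0.0238, 0.0476 and 0.0357). Without DLBCL1, DLBCL3 or DLBCL4 it rose to 0.0833, and without any one healthy library to between 0.107 and 0.125 (same test). The ratio of miR-9 to miR-128 was between 0.0694 and 0.133 in healthy nodes, and between 0.00781 in DLBCL2 and 0.622 in DLBCL6. The DLBCL libraries lay on both sides of the healthy range, and the log2 ratios of -3.68 ± 2.52 (SD, n = 6) and -3.33 ± 0.45 (SD, n = 4) differed by -0.35 (two-sided exact permutation test, p = 0.8, adjusted p = 0.8).

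**Figure D2:**
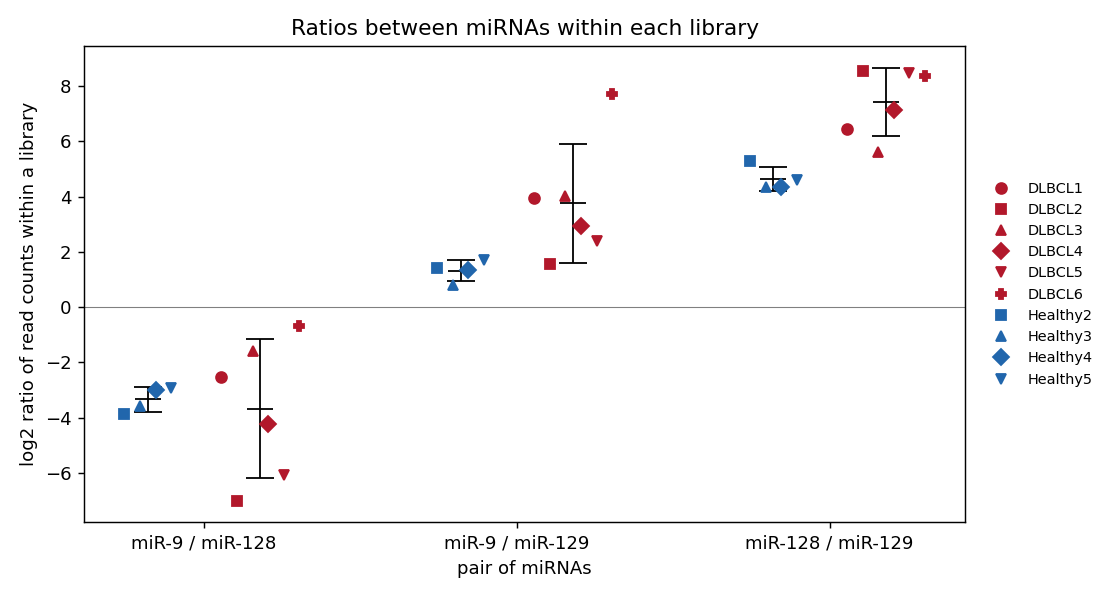
Log2 ratio of the read counts of each pair of miR-9, miR-128 and miR-129 within each library, with healthy nodes in blue and DLBCL nodes in red. Black bars are the mean and SD of each group (n = 4 and n = 6). For miR-128 to miR-129 the lowest DLBCL ratio is 49.0 and the highest healthy ratio 38.7, and for miR-9 to miR-128 the healthy libraries lie inside the spread of the DLBCL libraries.

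miR-124 was counted with 1, 5, 4 and 5 reads in Healthy2, Healthy3, Healthy4 and Healthy5. In DLBCL it had 11 reads in DLBCL5, 1 read each in DLBCL1 and DLBCL4, and none in DLBCL2, DLBCL3 and DLBCL6. Only DLBCL5 exceeded every healthy library, with 0.50 TPM (95% Clopper-Pearson interval 0.25 to 0.895), against at most 0.163 TPM (0.0528 to 0.38) in healthy nodes. A count of 0 allows up to 3 reads, which is 0.165 TPM in DLBCL2, 0.116 TPM in DLBCL3 and 0.151 TPM in DLBCL6, and these limits overlap the healthy values. Because PCR copies are not separate molecules, these intervals and limits take in only the error of counting. miR-124 did not pass the filter on low counts, and the exact permutation test of its log2 CPM (prior count of 2) gave an unadjusted p of 0.386.

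miR-137 was counted in 1 of the 10 libraries, with 5 reads in DLBCL6 or 0.252 TPM (95% Clopper-Pearson interval 0.0817 to 0.587). The other 9 libraries had 0 reads, which allows up to 0.281 TPM in DLBCL1, the shallowest library, and 0.0864 TPM in Healthy2, the deepest. A difference between the groups was not detectable at this depth.

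A list of 12 other miRNAs of the nervous system was set beside the 5. Of the 12, 10 passed the filter on low counts, and 0 of 10 were called by edgeR, against 5.67% of all miRNAs tested. By DESeq2 0 of the 12 were called, against 15.0% of all miRNAs, and 1, miR-7, if its Cook's filter was off (1.68, adjusted p = 0.0419), against 21.2%. At an unadjusted p under 0.05 edgeR gave 1 of 10, miR-7. The log2 fold change was above 0 for 6 of 10, and the median over the 10 was 0.09, close to the 0.13 of all miRNAs tested. miR-7, a miRNA of neurons, pituitary and endocrine cells, was the most abundant member, at 7462, 7227, 8825 and 3904 CPM in Healthy2, Healthy3, Healthy4 and Healthy5 and between 5609.6 CPM in DLBCL6 and 46188 CPM in DLBCL3. Of the DLBCL libraries, 5 of 6 lay above the healthy ones, and in TPM 6 of 6 did. Groups did not overlap in CPM for 13.0% of the miRNAs tested, and the share in TPM was not computed. With total miRNA reads the median difference of all miRNAs was 0.82 on the log2 scale. edgeR put its difference at 1.55 on the log2 scale, with a standard error of 0.53 and an adjusted p of 0.109, and DESeq2 gave an adjusted p of 0.0506. With total miRNA reads in place of TMM, miR-7 was a DEM (2.11, adjusted p = 0.00602 from edgeR), as it was with voom and with trend on log2 TPM. It was also a DEM by edgeR without DLBCL6. In the lower Q30 group with total miRNA reads, where 33.6% of all miRNAs were called, miR-7 and miR-138b were DEMs (1.80 and 2.72, adjusted p = 0.00283 and 0.0315 from edgeR).

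miR-218, known from motor neurons, followed at 236 to 424 CPM in healthy nodes and 47.5 to 681 CPM in DLBCL, and differed by 0.14 on the log2 scale (standard error 0.57). miR-132 and miR-212, a pair induced by neuronal activity, had log2 fold changes of -0.20 and 0.79, and miR-138a and miR-138b had -0.71 and 1.44. miR-153, a miRNA of synaptic vesicle release, had 0.03, and miR-383 had -0.53. Among the miRNAs of oligodendrocytes, the myelinating cells, miR-219-5p had 0.86 and miR-338 had -0.87. None of these, miR-218 included, had an unadjusted p under 0.05 (edgeR). miR-488 and miR-219-3p, with at most 5 and 8 reads in a library, were the least abundant and did not pass the filter.

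**Figure D3:**
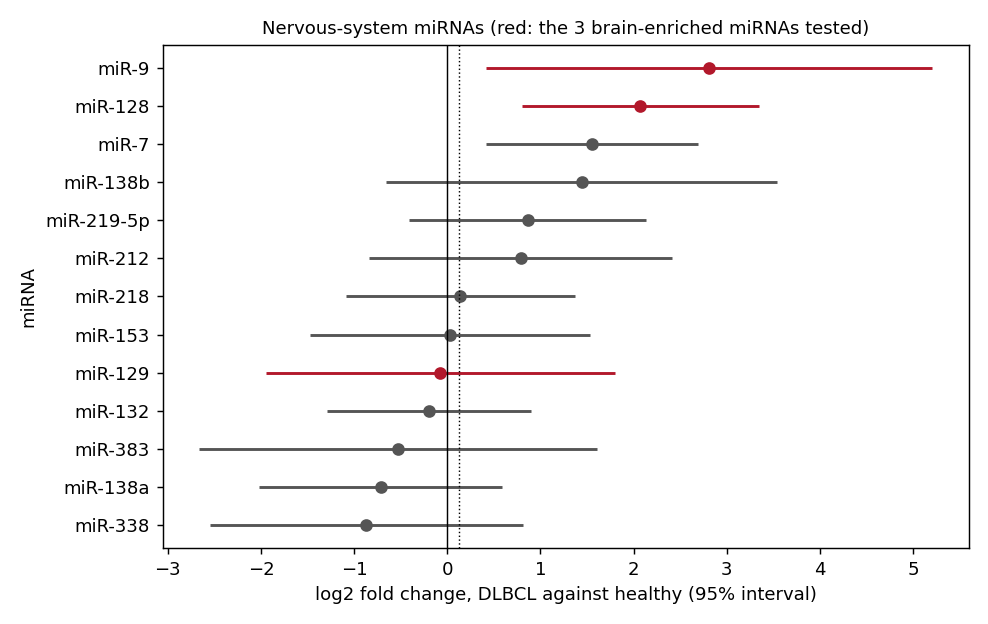
Log2 fold change of DLBCL against healthy nodes (edgeR, point) with its 95% interval (line) for miR-9, miR-128 and miR-129 in red and the 10 other nervous-system miRNAs that passed the filter on low counts in gray. The dotted line is the median of all miRNAs tested, 0.13, and the intervals of miR-9, miR-128 and miR-7 lie above 0.

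The miRNAs whose profiles over the 10 libraries were most like those of the 3 abundant members were found by the root mean square difference of log2 CPM, each profile centered on its own mean. This is a description, since the closest of 246 were picked. Nearest to miR-128 were miR-8829, miR-1840 and miR-1836 at 0.39, 0.41 and 0.43 log2 units, where the median over all was 1.59. Like miR-128, these 3 had their highest value in DLBCL5, but at lower levels, with maxima of 5.60, 13.1 and 19.7 CPM. Nearest to miR-9 were miR-1839, miR-1844 and miR-1343 at 1.33, 1.44 and 1.48, with a median of 2.28, and each had its highest value in DLBCL3. Nearest to miR-129 were miR-28, let-7f and miR-10b at 0.84, 0.91 and 0.93, with a median of 1.82, and these were highest in DLBCL3 too. Among the 3 members the differences were 1.81 for miR-9 and miR-128, 1.94 for miR-9 and miR-129 and 1.63 for miR-128 and miR-129. They cannot be set against the nearest, which were picked for being small. Both values of miR-9 lay under its median of 2.28. The value with miR-128 lay over the median of miR-128 (1.59), and the value with miR-129 over the median of miR-129 (1.82). The value for miR-128 and miR-129 lay between 1.59 and 1.82.

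The calls of miR-128 and miR-9 were set against those of all miRNAs under each setting. miR-128 was a DEM by DESeq2 if its Cook's filter was off (21.2% of all called), with voom (18.6%) and with trend on log2 TPM with 1 added (8.50%) or 0.1 added (9.72%). It was also a DEM by edgeR without DLBCL2 (7.00%), DLBCL4 (9.43%) or DLBCL6 (6.20%), and not without any other single library. miR-9 was a DEM with both forms of DESeq2 and within the lower Q30 group. None of the members was called when all listed miRNAs were tested (5.31%), when 10 reads were required in each library (8.47%), with DESeq2 size factors in edgeR (3.24%), with a robust fit (5.67%), with the Q30 group as a covariate (2.83%) or with the replicate number as a block (0.405%).

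**Figure D4:**
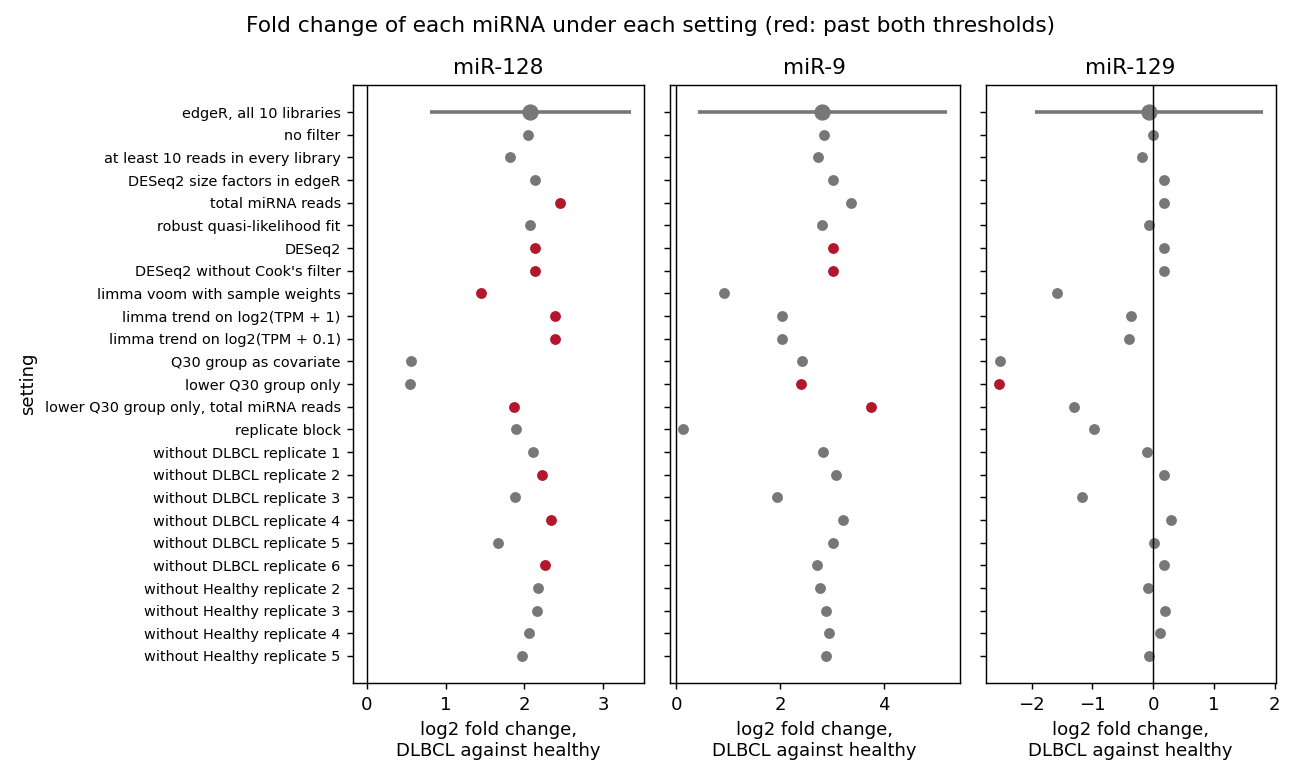
Log2 fold change of DLBCL against healthy nodes for miR-128, miR-9 and miR-129 under each normalization, filter, test and set of libraries tried, with the 95% interval for edgeR on all 10 libraries. Red points passed both thresholds. The values stay above 0 for miR-128 (0.55 to 2.45) and miR-9 (0.12 to 3.75) and lie on both sides of 0 for miR-129 (-2.54 to 0.30).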

How the data were processed

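Per the study's methods and the submitters' processing notes, the authors removed adapters, aligned the reads by Bowtie 0.12.9, discarded repeats and other small RNA classes, and assigned the rest to miRBase miRNAs with miRDeep2. The notes name the build CanFam3.1. The authors deposited read counts per miRNA and library without normalization. The TPM values that the authors deposited differ from the count per 1000000 counted miRNA reads by at most 4.55e-05. RefSeq's table was used for gene names and neighbours only.

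Groups and library numbers were taken from the sample titles. Groups were compared by edgeR 4.0.16, run in R 4.3.3 (TMM, filterByExpr by group, quasi-likelihood test, Benjamini-Hochberg over 247 miRNAs). DEMs had an adjusted p under 0.05 and a fold change over 2. Log2 CPM used a prior count of 2. DESeq2 1.42.0 and limma 3.58.1 (voom with sample weights, and trend on log2 TPM with 1 or 0.1 added) were alternatives, as were other filters, scalings, Q30 sets and leaving out libraries. The self-test on simulated counts of 320 miRNAs recovered 0% of changes of 1 on the log2 scale, 40.5% of 2 and 86.5% of 3. Permutation tests used scipy 1.17.1. The members, lists and tests were chosen with earlier results of these data known. Named were the members, the nervous-system list and the 3 miRNAs nearest to each member tested. No pair of libraries in a group was a duplicate (chi-squared per degree of freedom at least 2115). Each library came from a separate dog, so that the p-values take the dog as the unit. miR-9, miR-128 and miR-129 spread more widely in DLBCL than in healthy nodes. Neither edgeR's test nor the permutation test models a separate spread for each group.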

Additional observations from a re-analysis of the deposited data

Results flagged for a closer look

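A library was far from the others of its group, by Dixon's criterion, in 4 of the 39 sets of values tested. For values with a normal distribution chance flags about 1 in 20. That rate need not hold for CPM, least of all near 0 reads. With reads in 1 DLBCL library only, the flag of miR-137 was fixed in advance. miR-129 stood at 113 CPM in DLBCL3, where the next highest DLBCL library had 31.8 CPM. miR-212, of the nervous-system list, stood at 6.26 CPM in the same library. miR-124 stood at 0.717 CPM in DLBCL5, which is 11 reads, and miR-137 at 0.124 CPM in DLBCL6, which is 5 reads, the other DLBCL libraries having 0 or 1 read of either.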

How the results depend on the processing

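The count of DEMs over all miRNAs, 14 in edgeR, was 8 with DESeq2 size factors, 23 with total miRNA reads, 44 by DESeq2 and 56 if its Cook's filter was off, 46 by voom, 24 by trend on log2(TPM + 0.1), 7 after adjusting for Q30 group, 46 in the 6 libraries of lower Q30 and 87 there with total reads. Leaving out each library gave 1 to 23. miR-128 was a DEM with total reads (2.45), DESeq2 with or without Cook's filter (2.14), voom (1.45), trend with either pseudocount (2.39) and in the lower Q30 group with total reads (1.87), and without DLBCL2, DLBCL4 or DLBCL6. Its log2 fold change was 0.56 with the Q30 covariate and 1.66 to 2.34 over single libraries left out. miR-9 was a DEM with DESeq2 with or without Cook's filter (3.01) and within the lower Q30 group (2.41, and 3.75 with total reads, a combination chosen after seeing the data), and was at 0.93 with voom and 1.93 to 3.20 over libraries left out. miR-129 changed sign without a filter (0.0024), with total reads (0.17), with DESeq2 size factors and with DESeq2 with or without Cook's filter (0.18), and ranged from -1.17 to 0.30 over libraries left out. It was a DEM only within the lower Q30 group (-2.54). The cause of these changes was not tested.

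The log2 ratio of miR-128 to miR-129 differed by 2.57 to 3.16 over libraries left out and by 3.12 in the lower Q30 group, where 2 libraries against 4 allow no p under 0.0667. That of miR-9 to miR-129 ranged from 1.65 to 2.88, and that of miR-9 to miR-128 from -0.95 to 0.31 and was 0.87 in the lower Q30 group. The median of the nervous-system list ranged from -0.080 (without DLBCL2) to 0.29 over libraries left out, and was 0.85 with total reads, as the median of all miRNAs moved to 0.82. miR-124 and miR-137 did not pass the filter. Without it, miR-124 had a log2 fold change of -0.34 (adjusted p = 0.886 from edgeR). For miR-137, at 0 reads in 9 of 10 libraries, the fitted value depends on the prior count and is not given.

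With the replicate number as a block, 1 miRNA was a DEM, and the log2 fold changes were 1.90 for miR-128, 0.12 for miR-9 and -0.97 for miR-129. Libraries of one number come from different dogs, and their deviations correlated at -0.33 to 0.26, so that the number does not pair them. Levels under 3 reads per library are beyond this depth.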
